A study of Caenorhabditis elegans with 2 samples.

Results

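C-type lectin (clec) genes of Caenorhabditis elegans were examined for sites of the nuclear hormone receptor NHR-19 in starved L1 larvae. Members were all protein-coding genes of Ensembl release 115 (WBcel235, the assembly also called ce11) whose symbol begins with clec-. There were 240 such gene records under 237 symbols, among 19973 protein-coding genes; 6 records share their symbol with another record and were counted separately. Chromatin immunoprecipitation and sequencing had been carried out on whole larvae of strain OP791, which carries the transgene wgIs791 (nhr-19::TY1 EGFP 3xFLAG with the rescue marker unc-119(+)) in an unc-119 (tm4063) background. The series holds 1 group of 2 biological replicates, at an age of 6 h and synchronized by starvation after bleaching, and all larvae carry the tagged transgene. The description of both samples names an anti-GFP antibody, whereas their antibody field names nhr-19. The larvae are 1 transgenic strain, and the chromatin comes from all their cells, so a site in a few cells and a weak site in many cells cannot be told apart.

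C-type lectins are secreted or membrane proteins with a fold that binds sugars or other ligands. In C. elegans the family is large, many members lie in tandem groups, and many are expressed in the intestine, where a number of them are switched on when the worm eats pathogenic bacteria. NHR-19 is a member of the nuclear hormone receptor family of transcription factors, which bind DNA through a zinc finger domain.

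A gene was counted as having a site when the summit of a peak in the authors' conservative thresholded list over both replicates lay from 1000 bp upstream to 500 bp downstream of the 5′ end of its gene record. That list holds 4560 peaks. The ranked list behind it holds 20609, each with an irreproducible discovery rate (IDR), which is low for peaks ranked high and alike; the thresholded list reaches an IDR of 0.00998. Peaks of the ranked list that are absent from the thresholded list are called candidates. Of these, 24 have an IDR as low as that of listed peaks. Signal, the value that the authors' lists give each peak, was used to order peaks within 1 list only. The lists hold no read counts, so depth is unknown, and whether a control was used in calling peaks is not given in the sources used here.

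Few C-type lectin genes had a site. Of the 240 genes, 6 had one (2.50%, 95% Wilson interval 1.15 to 5.35%, which covers the counting of genes only), against 14.1% of all protein-coding genes. These were clec-57, clec-126, clec-53, clec-115, clec-104 and clec-146. The authors' other thresholded list over both replicates gave the same 6 clec genes, against 13.9% of all genes. The thresholded list of replicate 1 alone gave 5 clec genes (2.08%), against 12.3% of all genes, and that of replicate 2 alone gave 5 (2.08%), against 12.5%. The 5 genes were the same in both replicates, and clec-146 was the member missing from each. No test was made of these differences, since the members were chosen with results of these data known.

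A ranked summit of any IDR, site or candidate, lay in the window of 68 clec genes (28.3%), against 33.5% of all protein-coding genes. In the ranked partner of the other list it was 67 clec genes (27.9%), against 33.1%. Of the 68, only the 6 had a site (8.82%), against 42.1% of the 6685 genes with a ranked summit. The other 62 had candidates only, which is 25.8% of the 240 clec genes, against 19.4% of all protein-coding genes. The remaining 172 clec genes had no ranked summit in the window.

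**Figure D1:**
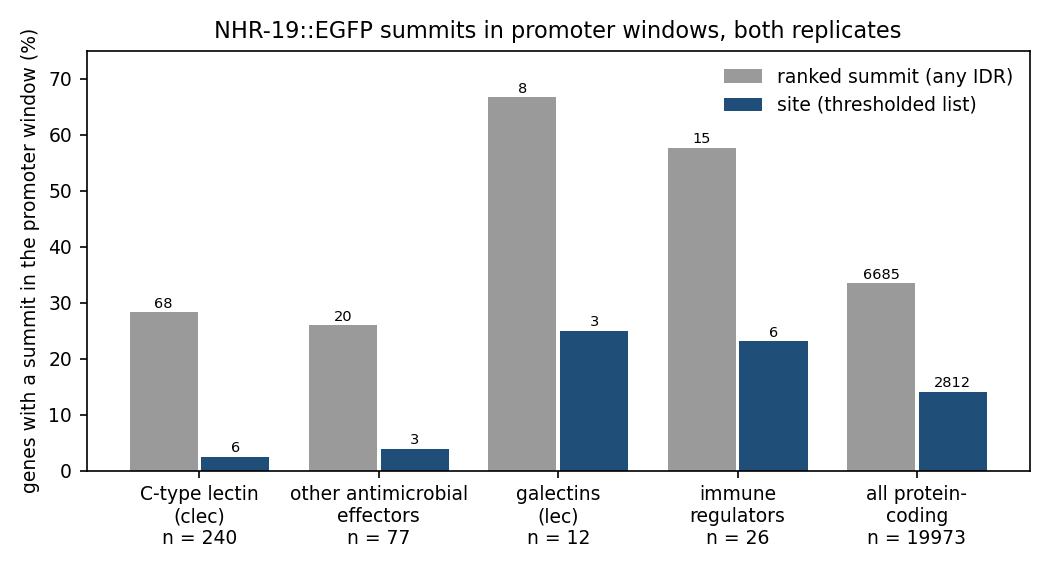
Share of genes (y axis, percent) with a ranked summit of any IDR (grey) and with a site of the thresholded list (blue) in the promoter window, for the C-type lectin genes, 3 lists of related genes and all protein-coding genes; numbers above the bars are genes. The clec bar for sites stands at 2.50% and that for all genes at 14.1%, whereas their bars for ranked summits stand at 28.3% and 33.5%.

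The strongest of the 6 sites lay upstream of clec-57 on chromosome V. Its peak spans chrV:14468665-14468886 and had a signal of 499.9, rank 1117 of 4560, with 222 in replicate 1 and 276 in replicate 2. The summit is 466 bp upstream of clec-57 and also 519 bp upstream of srz-97, a chemoreceptor-class gene on the other strand, so it lies in the window of both genes. A small nuclear RNA gene, F08H9.11 (chrV:14468569-14468733, minus strand), begins 32 bp from the summit, and the non-coding RNA gene F08H9.13 on the opposite strand ends 19 bp from it. Its summit sequence is shown with those of clec-126 and clec-146 because their surroundings differ: beside an snRNA gene, on a tRNA gene, and with no other gene near. Each is 101 bases around the summit, read 5′ to 3′ on the strand of the clec gene from RefSeq WBcel235. Capitals mark the bases that belong to the snRNA gene in the first and to the tRNA gene in the second.

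clec-57 site, chrV:14468715-14468815, plus strand: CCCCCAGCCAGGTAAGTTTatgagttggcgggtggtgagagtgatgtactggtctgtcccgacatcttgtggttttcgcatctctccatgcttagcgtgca

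clec-126 site, chrII:3519270-3519370, plus strand: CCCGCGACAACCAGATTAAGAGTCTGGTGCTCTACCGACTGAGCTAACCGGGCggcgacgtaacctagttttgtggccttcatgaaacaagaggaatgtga

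clec-146 site, chrII:13594116-13594216, minus strand: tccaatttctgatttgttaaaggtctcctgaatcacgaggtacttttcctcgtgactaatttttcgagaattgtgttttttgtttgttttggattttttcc

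The clec-126 site lay on a tRNA gene. Its peak, chrII:3519276-3519407, had a signal of 376 and rank 1587, with 203 in replicate 1 and 176 in replicate 2. The summit is 174 bp upstream of clec-126, the least distance among the 6, and within the annotated tRNA gene WBGene00023161 (chrII:3519250-3519322, minus strand); a second tRNA gene lies 163 bp away. The next protein-coding 5′ end is 2480 bp from the summit. The replicate 1 summit was 67 bp to the left of the summit over both replicates, and that of replicate 2 was at the same base. Over all 4560 sites, 5.61% had a tRNA gene within 100 bp of the summit and 0.855% an snRNA gene; among sites in a promoter window the shares were 2.65% and 0.764%.

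The clec-53 site was nearer to another gene's 5′ end. Its peak, chrI:3873877-3874054, had a signal of 354 and rank 1714, with 196 in replicate 1 and 169 in replicate 2. The summit is 555 bp upstream of clec-53 and lies in an intron of uba-5, which encodes an activating enzyme for a ubiquitin-like protein and runs in the opposite direction. It is 513 bp downstream of the uba-5 5′ end, just beyond the edge of that gene's window at 500 bp. The count of shared sites therefore does not include it. The IDR over both replicates was 1e-05 for the sites of clec-57, clec-126 and clec-53.

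The sites of clec-115 and clec-104 lay near the far edge of the window. The clec-115 site, chrI:14245058-14245457, had a signal of 263, with 140.2 in replicate 1 and 112 in replicate 2. Its summit is 970 bp upstream of clec-115 and 806 bp upstream of C49A1.10, so it lies in both windows. The clec-104 site, chrI:12858308-12858707, had 249, with 155 in replicate 1 and 106 in replicate 2. Its summit is 985 bp upstream of clec-104 but 227 bp upstream of ciao-1, named after a human gene for the assembly of iron-sulfur proteins in the cytosol. The IDR was 5.76e-05 for the first and 6.46e-05 for the second. In both replicates the signals of these sites were lower than those of clec-57, clec-126 and clec-53.

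The clec-146 site was the weakest and the one with no other gene near it. Its peak, chrII:13593966-13594365, had a signal of 155 and rank 3804 of 4560, with 74.0 in replicate 1 and 77.3 in replicate 2. The IDR was 0.00170 over both replicates, but 0.0269 in replicate 1 and 0.0190 in replicate 2, whose own thresholded lists each reach 0.00999. The summit is intergenic, 392 bp upstream of clec-146, and the next protein-coding 5′ end, that of fbxc-23, is 2389 bp away. The nearest non-coding RNA gene is 25327 bp away.

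**Figure D2:**
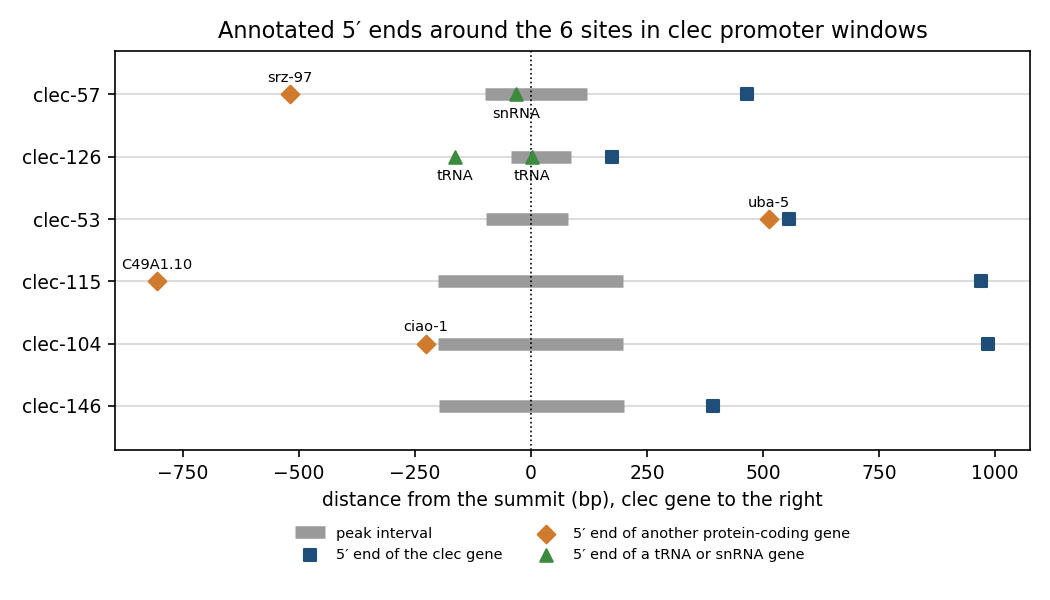
Annotated 5′ ends (symbols) around the summit (0 on the x axis, in bp) of the 6 sites in clec promoter windows, strongest at the top, each turned so that the clec gene lies to the right; grey bars are the peak intervals. A protein-coding neighbour begins nearer to the summit than the clec gene does for clec-53, clec-115 and clec-104, and an snRNA or tRNA gene does for clec-57 and clec-126, which leaves clec-146 with its own 5′ end only.

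In all, 3 of the 6 clec genes shared their site with another protein-coding gene, as did 48.4% of all genes with a site. Of the 6, the clec gene had the nearest protein-coding 5′ end for 3, namely clec-57, clec-126 and clec-146. With each site given to its nearest gene only, 2125 of the 2812 protein-coding genes with a site kept one. The 6 summits lay a median of 510.5 bp from the clec 5′ end, and all 6 were upstream, against a median of 243 bp over all pairs of a gene and its site, of which 90.7% were upstream. The signals of the 6 had a median of 309, against 319 for the 2224 sites in any promoter window; 3 of the 6 were below 319 and 3 above.

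**Figure D3:**
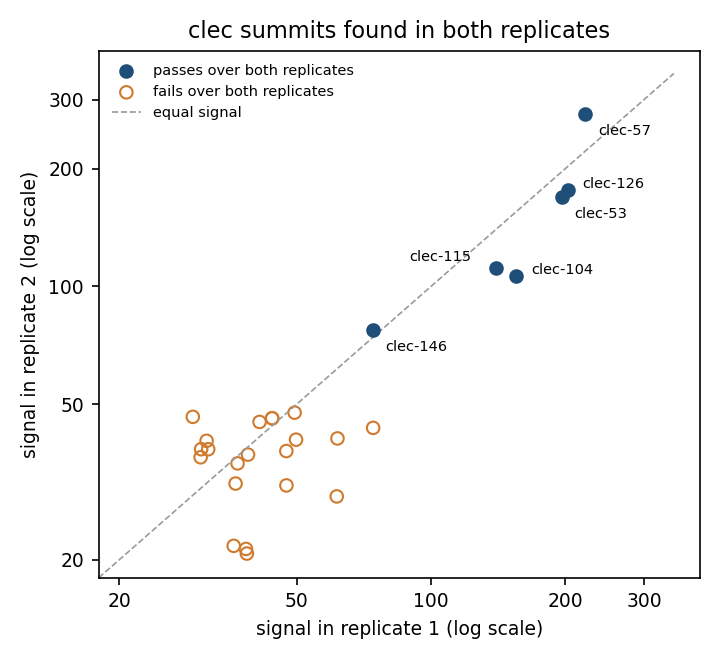
Peak signal in replicate 1 (x axis) and in replicate 2 (y axis), both on log scales, for the 27 clec genes whose strongest ranked summit was found within 200 bp in both replicates' ranked lists; filled points passed the threshold over both replicates, open points did not, and the dashed line marks equal signal; genes that share a summit share a point, and the lists are not on a common scale. The 6 filled points lie from 74.0 to 222 in replicate 1 and from 77.3 to 276 in replicate 2, and the 21 open points reach 74.2 and 47.6.

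Candidates are peaks absent from the thresholded list, so low signals among them follow in part from that choice. The strongest ranked summit of the 62 clec genes without a site had a median signal of 63.3, with a range from 46.5 to 118. For the 3811 other genes with a ranked summit and no site the median was 69.8, with a range from 43.6 to 2268. The lower and upper quartiles were 55.4 and 74.9 for the clec genes, and 58.2 and 88.6 for the other genes. For 35 of the 62 (56.5%) the IDR was 0.723, the highest value of the list, as it was for 43.3% of those other genes. None of the 62 passed the threshold in replicate 1 or in replicate 2 alone. Of them, 33 had a ranked summit within 200 bp in replicate 1, 35 in replicate 2, 21 in both and 15 in neither. A summit lay in the window of another protein-coding gene for 20 of the 62, and for 12 of these that gene was another clec gene only. These counts of single replicates and of shared windows are not given here for the candidates of other genes. They therefore cannot be read as traits of clec candidates.

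**Figure D4:**
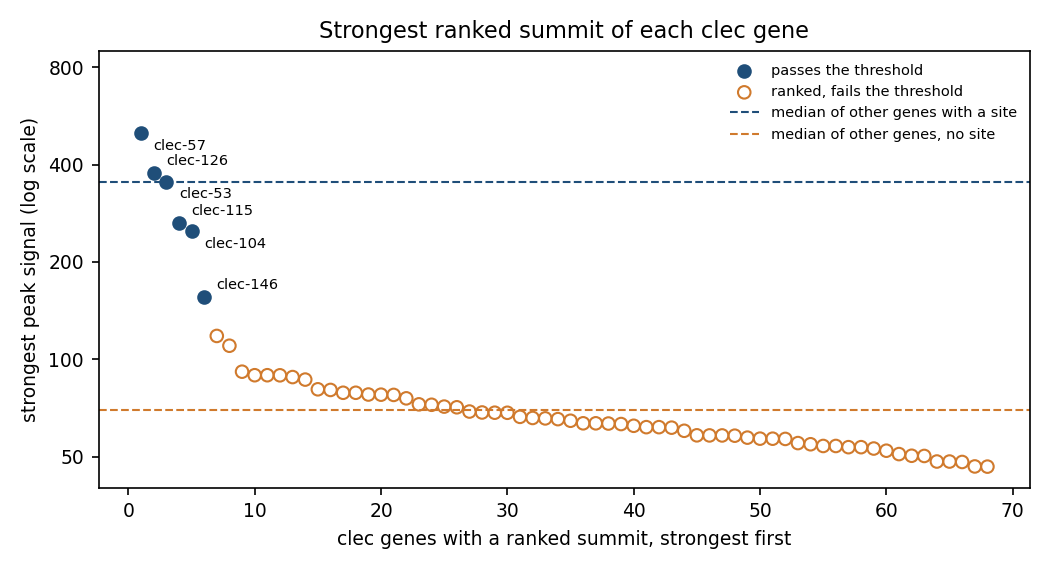
Signal of the strongest ranked summit (y axis, log scale) of the 68 clec genes that have one, in order of signal (x axis); filled points passed the threshold, and dashed lines mark the medians of other genes with a site (354) and of other genes with a ranked summit but no site (69.8). The 6 genes with a site lie from 155 to 499.9, and all 62 others lie at or under 118.

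Among these candidates, clec-87 had the highest signal, 118, with 74.2 in replicate 1 and 43.5 in replicate 2, at an IDR of 0.2499. It is shared with rsa-1, a gene of spindle assembly whose 5′ end is 65 bp from the summit, against 270 bp for clec-87. The candidate of clec-86 had 110.1 (61.7 and 40.9 in replicates 1 and 2; IDR 0.214) and lay 39 bp downstream of the 5′ end. That of clec-48 had 91.5 and was found only in replicate 2, at 51.97.

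The divergent pair clec-245 and clec-246 shared a candidate of 89.2 (44.1 and 46.03 in replicates 1 and 2; IDR 0.113), with the summit 818 bp upstream of clec-245 and nearer to clec-246. The lowest IDR of any clec candidate, 0.0454, was that of clec-178, with a signal of 89.2 and 49.5 and 47.6 in replicates 1 and 2. This summit lies at the last base of the window, 500 bp downstream of the 5′ end, in introns of both clec-178 and skn-1, a regulator of the response to oxidative stress. Next in order were clec-195 (signal 88.1), clec-169 (86.5), clec-229 (80.7) and clec-251 (80.3), with IDR from 0.103 to 0.723.

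Members known from work on bacterial infection were looked at by name. Of 18 symbols on that list, 17 were annotated, and 6 of the 17 (35.3%) had a ranked summit, near the 33.5% of all protein-coding genes. None of the 17 had a site, against 14.1% of all genes. The 95% Wilson interval of that share reaches 18.4% and covers the counting of genes only. The list is short, and whether it differs from all genes was not tested. The strongest candidate among the 17 was that of clec-86, given above. The candidate of clec-61, a gene induced by Staphylococcus aureus together with its neighbour clec-60, had 70.999 at an IDR of 0.176 and 42.9 in replicate 1, and was not found in replicate 2. Its summit is 61 bp upstream of the 5′ end, and clec-60 had no ranked summit. The candidates of clec-71, clec-39, clec-63 and clec-7 had signals of 55.0, 53.9, 53.4 and 46.6, all at the highest IDR of the list. That of clec-71 was found only in replicate 2, at 23.5, and those of clec-39, clec-63 and clec-7 in neither replicate. The summits of clec-39, clec-63 and clec-7 also lie in the window of another protein-coding gene, a clec gene for clec-39 and clec-63.

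The sequences at the clec-61 and clec-178 candidates are given as examples of 2 of the words searched for, in an infection gene and in the candidate of lowest IDR. Capitals mark TGATAA, the GATA word of intestinal genes, in the first, and overlapping copies of GAGAGA in the second.

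clec-61 candidate, chrII:10490548-10490648, minus strand: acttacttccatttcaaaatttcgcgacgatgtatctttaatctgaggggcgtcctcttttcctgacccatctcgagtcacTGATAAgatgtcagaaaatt

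clec-178 candidate, chrIV:5654399-5654499, plus strand: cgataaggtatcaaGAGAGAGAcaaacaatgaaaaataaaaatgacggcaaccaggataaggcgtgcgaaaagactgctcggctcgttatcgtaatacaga

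A word was sought on both strands in the 101 bases around each summit: GAGAGA for GA repeats, CACGTG for the E-box of bHLH factors, TGATAA for GATA factors, and AGGTCA for the core element of many nuclear receptors; none of these words contains another. GAGAGA was found at 2 of the 6 clec sites, clec-57 (as TCTCTC in the sequence above) and clec-115, against 25.8% of all 4560 sites. The other 3 words were found at 0 of 6, against 7.76% for CACGTG, 8.84% for TGATAA and 3.90% for AGGTCA. Among the 2224 sites in a promoter window, where all clec sites lie, the shares were 22.3% for GAGAGA, 6.12% for CACGTG, 6.7% for TGATAA and 3.55% for AGGTCA. At the 64 candidates of clec genes without a site, TGATAA was found at 9 (14.1%) and GAGAGA at 5 (7.81%). Among all 16049 candidates the shares were 9.55% and 8.92%. AGGTCA was found at 2 of the 64 (3.12%) and CACGTG at 0, against 3.01% and 3.05% of all candidates. Base composition differed among the 6 sites. The windows of clec-57, clec-126, clec-53, clec-115 and clec-104 held from 49.5 to 53.5% G and C, and that of clec-146 held 33.7%. The median was 45.5% over all sites, 46.5% over sites in a promoter window and 38.6% over the same 64 clec candidates.

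Sites at clec genes were spread over 3 chromosomes. On chromosome I, 3 of 36 clec genes had a site, against 17.5% of all genes there; on II, 2 of 48, against 13.8%; and on V, which holds 86 clec genes, 1, against 10.4%. Chromosomes IV, III and X hold 53, 14 and 3 clec genes, and none had a site, against 12.6, 20.6 and 13.0% of all genes. Most clec genes lay outside chromosome centres: 34.6% had their 5′ end in the central 50% of the chromosome, against 55.3% of all genes. Of the 83 central clec genes 2 had a site (2.41%), against 15.7% of all central genes, and of the 157 in the outer 50% it was 4 (2.55%), against 12% (1074 of 8930). The share of clec genes with a site was thus below that of all genes in both regions. For ranked summits the 2 regions were unlike: 21.7% of central clec genes had one, against 34.4% of all central genes, and 31.8% of outer clec genes, against 32.3%.

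Another clec 5′ end lay within 10000 bp for 5 of the 6 genes, as for 148 of all 240 (61.7%), and clec-53 stood alone. There were 8 such neighbours, of which 5 had candidates, 3 had no ranked summit and 0 had a site, against 2.50% of clec genes and 14.1% of all genes; 8 genes are too few to read this count against either share. Beside clec-57 the genes clec-227 and clec-54 had candidates of 50.2 and 58.0 and clec-56 had no ranked summit. Beside clec-126, clec-125 had a candidate of 72.5. Beside clec-104, clec-105 and clec-106 had 63.01 and 52.1, and clec-116 and clec-145, next to clec-115 and clec-146, had no ranked summit. The 5′ ends of clec genes lay a median of 21010 bp from the nearest site, against 9292 bp for all genes; within the outer 50% of chromosomes it was 27078 bp, against 12888 bp.

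The replicates were also counted one by one. Replicate 1 had a ranked summit in the window of 56 clec genes (23.3%), against 32.7% of all genes, and replicate 2 in that of 79 (32.9%), against 40.7%. Both replicates ranked 32 of these genes, which is 57.1% of those in replicate 1 and 40.5% of those in replicate 2. Over all protein-coding genes, the genes ranked in both replicates were 75.5% of those in replicate 1 and 60.6% of those in replicate 2. No ranked summit of any list lay in the window of 121 clec genes. The same count over all protein-coding genes is not given here, so this number cannot be read as a trait of the family.

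Other genes of the same biology were counted beside the family. Among 77 antimicrobial effector genes outside the C-type lectins (lysozymes, saposin-like, caenacin, thaumatin-like and related genes), 3 had a site (3.90%, Wilson interval 1.33 to 10.8%), against 14.1% of all genes, and 20 a ranked summit (26.0%), against 33.5%. The 3 with a site were spp-10, a saposin-like gene (signal 333; 179 and 147 in replicates 1 and 2), the caenacin gene cnc-8 (194; 108 and 85.7) and spp-14 (186; 81.4 and 106). Galectins bind sugars through another fold. Of their 12 genes, 3 had a site (25%, Wilson interval 8.89 to 53.2%), against 14.1% of all genes. A ranked summit lay in the window of 8 galectin genes (66.7%), against 33.5% of all genes. Of those 8, 37.5% had a site, against 42.1% of all genes with a ranked summit and 15% of the effector genes with one. In lec-5 the signal was 216, with 115 and 112 in replicates 1 and 2, and the site is shared with nep-25. In lec-2 it was 129, with 87.6 and 63.2, and in lec-4 it was 128, with 77.6 and 64.2.

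Of 26 regulators of innate immunity, 6 had a site (23.1%, Wilson interval 11.0 to 42.1%), against 14.1% of all genes. A ranked summit lay in the window of 15 regulators (57.7%), against 33.5% of all genes. Of those 15, 40% had a site, against 42.1% of all genes with a ranked summit. The intervals of these lists cover the counting of genes only. No difference between a list and all genes was tested. The strongest were those of nipi-3, a pseudokinase gene of the Tribbles type (735; 373 in each replicate), the C/EBP transcription factor gene cebp-1 (626; 337 and 301), the stress-activated kinase gene kgb-1 (460.4; 236 and 216, shared with T07A9.12) and the FOXO transcription factor gene daf-16 (388; 203 and 197). The remaining ones were hlh-30 and sma-2. The signal of the clec-57 site, 499.9, lies between those of cebp-1 and kgb-1.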

How the data were processed

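Peak lists of NHR-19::EGFP ChIP-seq on the ce11 assembly were used as the authors deposited them: a thresholded and a ranked list for each of 2 replicates, and a conservative and a second pair over both replicates. The signal of each peak and the −log10 of its global IDR are the authors' values as deposited; signal is not comparable between lists. No source used here names the peak caller, the aligner or the control used in calling. Over both replicates, the ranked list that held all peaks of a thresholded list was taken as its partner. The ranked list of each replicate also held all peaks of its thresholded list. From the conservative thresholded list 24 ranked peaks with an IDR as low are missing, and why was not tested. Not used were 16 columns of single-replicate values that carry no sample name.

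Summits (start plus column 10, written from base 1) were assigned to Ensembl release 115 genes with Python 3.11.15 and pandas 2.3.3, and peaks were compared with chromosome lengths of the reference. The strongest peak of another list within 200 bp of a summit was taken as the same. Assignment was tested on simulated data. No test of significance was run. Alternatives were other windows, 5′ ends, lists and thresholds. Members and lists were chosen with earlier results of these data known. Named genes are all clec genes with a site, the 10 strongest candidates, genes sharing a site, infection-list members with a ranked summit and up to 4 bound genes of each other list; clec-60, fbxc-23, uba-5, hlh-30 and sma-2, the genes of the tandem groups and those of the intron and distal sites in the closing section were named after their values were seen. A planned look at protein sequences was not made, as no protein table was used here.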

Additional observations from a re-analysis of the deposited data

How the results depend on the processing

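The share of clec genes with a site lay below that of all genes in each of the 11 alternatives, at 1.25 to 3.33% against 8.72 to 18.1%. The count of clec genes, 6 as reported, was 3 with a window of 500 bp upstream to 200 bp downstream (clec-57, clec-126 and clec-146, against 11.0% of all genes), 3 with each site given to its nearest gene only (the same genes) and 3 in the strongest 50% of sites (clec-57, clec-126 and clec-53). Without replicate 1 or 2 it was 5 in each case. With 2000 bp upstream clec-91 was added, with 5′ ends of all transcripts clec-196, with peak overlap clec-196 and clec-221, and at an IDR of 0.05 clec-178. All genes with a site fell to 1741 in the strongest 50%, against 2812. Clec genes sharing their site, 3 as reported, were 0 in the narrow window and 1 in the strongest 50%. Clec genes with a ranked summit, 68 as reported, were 41 in the narrow window, against 22.9% of all genes, and 56 to 79 when 1 replicate was left out. With the nearest gene only, sharing has no value. As a percent of the list, the ranks of the clec-57, clec-126 and clec-53 sites were 24.5, 34.8 and 37.6. Those of clec-115, clec-104 and clec-146 were 50.7, 54.1 and 83.4. In the other list over both replicates the ranks were 24.96, 35.5, 38.4, 51.9, 55.4 and 84.8, in the same order. Without replicate 1 the first 5 were 24.1, 42.8, 45.2, 68.8 and 72.6. Without replicate 2 they were 37.96, 42.4, 44.1, 63.6 and 57.3. The clec-146 site is in neither of these single-replicate lists. No paired analysis was possible because the series has 1 group. Depth is unknown, and the threshold limits what is seen of weak sites.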

Other observations

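Beyond the promoter window, 3 clec genes (1.25%) held a site within the gene, against 5.59% of all protein-coding genes. All lay in introns. The clec-196 site (chrIV:17277283-17277682) had a signal of 306, with 149 in replicate 1 and 170.3 in replicate 2. The signal over both replicates is higher than those of clec-115, clec-104 and clec-146. In replicate 1 alone, however, it is below the 155 of clec-104. The clec-196 summit is 527 bp downstream of the 5′ end of the gene record, just outside the window. It is 54 bp upstream of the 5′ end of an annotated transcript of the gene. The clec-221 site had 164 (86.9 and 79.6) at 567 bp downstream. In clec-250 a pair of overlapping peaks, with signals of 167 and 83.4, lay 2863 and 2664 bp downstream. The strongest replicate summit within 200 bp had the same signal for both peaks, 96.1 in replicate 1 and 82.8 in replicate 2. Whether a replicate holds a second, weaker summit there was not tested. A further site, 1792 bp upstream of clec-91, had 216 (119 and 94.5) and passed the threshold in both replicates. No other protein-coding 5′ end was nearer to any of these sites than that of the clec gene.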
